A study of Mus musculus with 6 samples.

Results

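The genes that build and modify long-chain fatty acids were examined in activated mouse CD8+ T cells treated with sphingosine-1-phosphate (S1P). The set held 10 genes: Acly, Acaca, Acacb, Fasn, Elovl1, Elovl5, Elovl6, Scd1, Scd2 and Srebf1. They were chosen by pathway membership, as genes of de novo fatty acid synthesis, elongation and desaturation, and found by matching the Ensembl identifiers of the count table to GENCODE mouse symbols. All 10 were among the 56941 identifiers of the table, and 9 were among the 13299 genes with enough counts to be tested; Acacb was the exception.

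RNA-seq counts were given for 6 samples, 3 treated with vehicle and 3 with S1P, a lipid mediator that signals through S1PR1 and related receptors. According to the labels, naive CD8+ T cells purified from spleens of B6 mice were activated on plates coated with antibodies to CD3 and CD28, with recombinant IL-2 at 100 U/ml, for 3 days. S1P at 5 µM or vehicle was added 24 h after the start, so activation and IL-2 were common to both groups. The methods of the study give either purified naive T cells or total splenocytes as starting cells for such cultures, and the labels call the 3 samples of a group biological replicates without saying whether each came from its own mouse, so the p-values below measure the spread between these samples only.

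In animal cells, ATP-citrate lyase (Acly) splits citrate exported from mitochondria into acetyl-CoA and oxaloacetate in the cytosol. Acetyl-CoA carboxylase turns acetyl-CoA into malonyl-CoA, and fatty acid synthase (Fasn) joins these units into palmitate. Elongases of the Elovl family then lengthen the chain, and stearoyl-CoA desaturases (Scd1, Scd2) place the first double bond. SREBP1, the product of Srebf1, is the transcription factor best known for switching on these genes, and T cells use the pathway to make membrane lipids when they start to divide.

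Libraries held between 12048880 and 17384084 counts. The second S1P sample stood apart from the others, with 7.8% of its counts from mitochondrial genes against 4.1% to 4.93% in the other 5 samples, and the difference in counts between it and its replicates was 18.4 and 31.3 per gene by chi-square, against 5.98 between the other two S1P samples. The cell type label was met in part. The 11 T cell markers were all detected and summed to 2184.7 to 2389.7 CPM with vehicle and 2012.8 to 2257.3 CPM with S1P. Of these, 1 was called higher (Cd2, log2 fold change 0.33, adjusted p 0.0131) and 3 lower (Cd8a, Cd8b1 and Trbc1, the last at -0.52 with an adjusted p of 0.00325), by the thresholds given below, and the other 7, the CD3 chains among them, were not called. Of those 7, Cd3d (-0.28, adjusted p 0.0129) and Cd3g (-0.21, adjusted p 0.0444) passed the adjusted p of edgeR's quasi-likelihood test but not the fold threshold. Cd2 lost its call without the first vehicle sample (0.30, adjusted p 0.0695) and, by size, without the second S1P sample (0.23). Cd8a, which encodes the CD8 alpha chain, was at 221.9 ± 24.9 CPM (counts scaled to a common library total with TMM factors; SD, n = 3) with vehicle and at 139.5 ± 6.59 CPM with S1P, a fall of 0.67 on the log2 scale (SE 0.08, adjusted p 0.000243 by the quasi-likelihood test of edgeR). Cd8b1, the beta chain, went from 117.1 ± 25.2 to 79.7 ± 6.39 CPM (log2 fold change -0.55, SE 0.13, adjusted p 0.00767). Cd4, which marks helper T cells, was at 203.4 ± 18.4 and 218.5 ± 31.6 CPM (log2 fold change 0.10, SE 0.10, adjusted p 0.487; -0.02 without the second S1P sample). Of the other 3 CD4 T cell markers, Zbtb7b, the transcription factor of the helper lineage, was higher with S1P by 0.37 (SE 0.09, adjusted p 0.00886) and Cd40lg by 0.50 (SE 0.13, adjusted p 0.0134), and Foxp3 was not (0.02, adjusted p 0.938). Without the second vehicle or the third S1P sample Cd40lg did not pass (0.42 with an adjusted p of 0.0615 and 0.45 with 0.0601). The 4 CD4 T cell markers summed to 229.3 to 272.2 CPM with vehicle and 251.7 to 319.3 CPM with S1P, so CD8 transcripts were lower with S1P while 2 of 4 CD4 T cell markers were higher. The 10 B cell markers summed to 1340.0 to 1634.6 CPM with vehicle and 1381.8 to 1590.7 CPM with S1P, none at or under 3 counts, and 2 of them passed the test, both lower. The 8 adipocyte and liver markers summed to 0 to 0.0576 CPM with vehicle and 0.236 to 0.527 CPM with S1P, with Adipoq, Cidec, Ttr and Serpina1a at 0 counts in every sample. The 5 natural killer (NK) cell markers summed to 63.8 to 68.9 CPM with vehicle and 32.9 to 45.3 CPM with S1P. Most of this sum was Eomes, and the group means of Ncr1, Klrb1c, Klra8 and Klra4 were at most 0.721 CPM. Of the 2 NK cell markers tested, Ncr1 was not called. Eomes, which the study lists among genes of T cell memory, fell from 65.0 ± 2.61 to 36.0 ± 5.56 CPM (log2 fold change -0.86, adjusted p 0.000162 by edgeR's quasi-likelihood test). The part of the CD8, CD4, B cell and NK cell transcripts in the results below was not tested. In bulk RNA, fewer cells of a type cannot be told apart from less RNA per cell.

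The steps of the pathway moved in opposite directions with S1P. Fasn and Acaca, which make malonyl-CoA and palmitate, fell, to 0.599 and 0.671 times the vehicle level, while Scd1 and Scd2, the desaturases, rose, 1.65-fold and 1.52-fold. To be called, a gene needed an adjusted p no higher than 0.05 and a log2 fold change of 0.3 or more in either direction, and p-values came from the quasi-likelihood test of edgeR and were adjusted by the Benjamini-Hochberg method over the 13299 genes. Of the 9 members tested, 2 were called higher, where 12.7% of all tested genes were called higher, and 2 were called lower, where 10.4% of all tested genes were. Acly and Elovl5 also passed the adjusted p, at which 28.5% of all tested genes passed, but changed by less than the fold threshold. Elovl1, Elovl6 and Srebf1 passed neither. In 7 of the 9, every S1P sample lay on the same side of every vehicle sample, as was so for 45.6% of all tested genes. The members' median log2 fold change was 0.14, beside 0.01 over all tested genes.

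**Figure D1:**
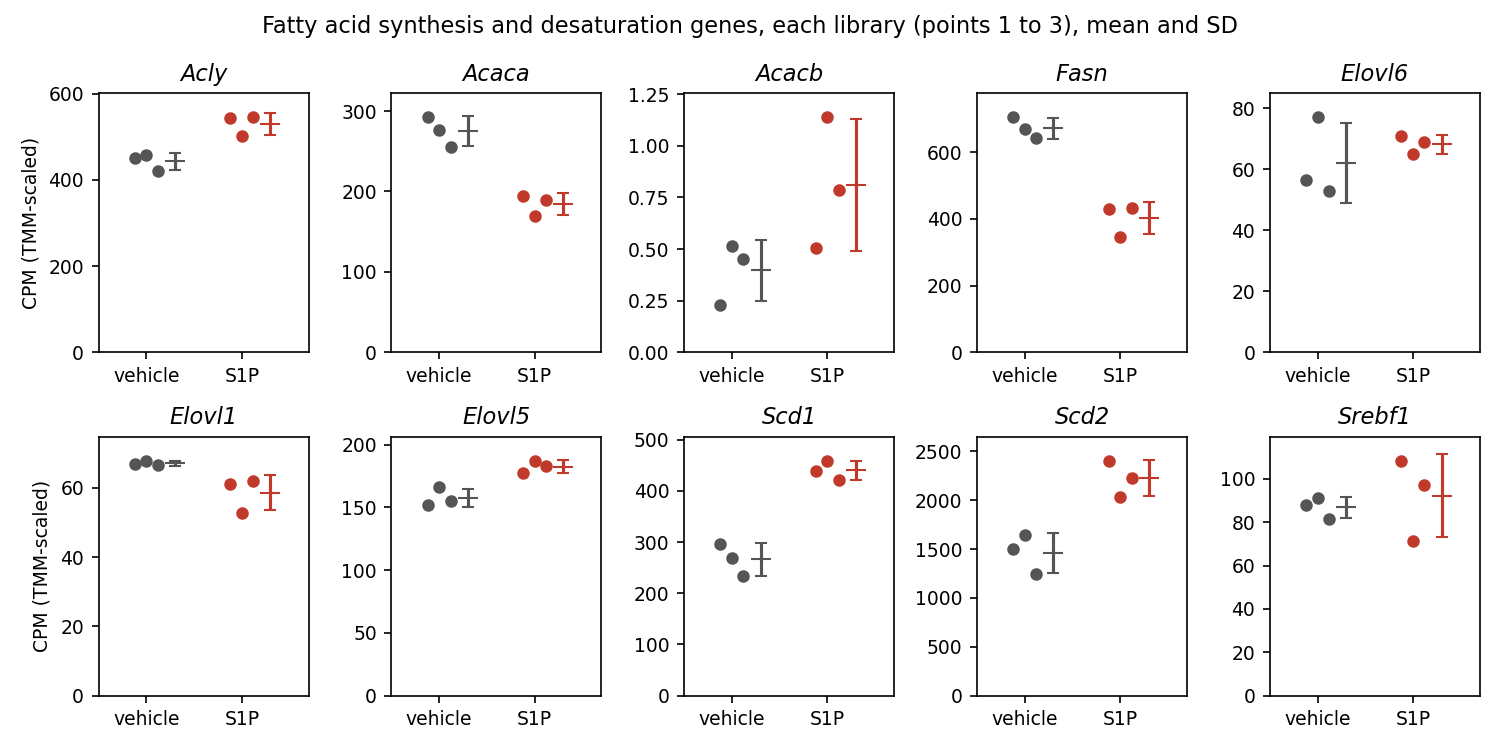
CPM (TMM-scaled) of the 10 genes in vehicle (grey) and S1P (red) samples, with a panel for each gene, a point for each sample and, to the right of the points, the group mean with SD. The S1P points lie below the vehicle points for Fasn, Acaca and Elovl1 and above them for Acly, Scd1, Scd2 and Elovl5, and the groups overlap for Acacb, Elovl6 and Srebf1.

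Sequences at the RefSeq start sites are shown for Acly, Acaca and Fasn, the first steps of the pathway, of which the last pair were called lower, and for Elovl5, whose window alone held an E-box. Each run is the 250 bases before the RefSeq transcript start, 5′ to 3′ on the gene's strand, and was located in GRCm39 by exact match. Capitals mark matches to the letters searched on both strands, namely CCAAT (the NF-Y box), GGGCGG (the Sp1 box), CACGTG (an E-box, which SREBP1 and other basic helix-loop-helix factors can bind) and TCACNCCAC (the letters of a sterol regulatory element). All 4 runs lie inside the widest bounds that GENCODE gives their genes, downstream of the most upstream annotated start, so they show the start site that RefSeq lists and not every promoter of the gene. The runs lie at chr11:120715374-120715623 (minus strand) for Fasn, at chr11:84086014-84086263 (plus strand) for Acaca, at chr11:100418827-100419076 (minus strand) for Acly and at chr9:77824397-77824646 (plus strand) for Elovl5.
Fasn: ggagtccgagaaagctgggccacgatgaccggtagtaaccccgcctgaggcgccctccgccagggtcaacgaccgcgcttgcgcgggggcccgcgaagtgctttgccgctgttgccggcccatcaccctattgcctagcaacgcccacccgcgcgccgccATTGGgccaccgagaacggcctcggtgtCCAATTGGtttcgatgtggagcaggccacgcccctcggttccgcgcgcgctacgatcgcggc
Acaca: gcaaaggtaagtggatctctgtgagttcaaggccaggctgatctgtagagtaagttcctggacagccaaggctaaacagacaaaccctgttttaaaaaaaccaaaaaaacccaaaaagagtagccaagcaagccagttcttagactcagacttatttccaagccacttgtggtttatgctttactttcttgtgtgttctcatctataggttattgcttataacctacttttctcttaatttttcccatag
Acly: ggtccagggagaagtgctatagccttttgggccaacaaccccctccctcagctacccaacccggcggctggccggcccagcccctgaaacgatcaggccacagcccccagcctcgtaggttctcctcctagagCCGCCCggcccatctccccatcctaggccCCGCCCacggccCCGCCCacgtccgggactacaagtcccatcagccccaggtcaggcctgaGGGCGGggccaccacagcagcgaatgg
Elovl5: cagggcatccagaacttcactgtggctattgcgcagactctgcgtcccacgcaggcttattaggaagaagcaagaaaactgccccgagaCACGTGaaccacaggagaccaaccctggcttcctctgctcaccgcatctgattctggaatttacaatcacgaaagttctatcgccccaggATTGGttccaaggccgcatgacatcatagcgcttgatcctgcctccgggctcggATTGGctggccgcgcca

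The Fasn run held 3 NF-Y boxes, starting 90, 62 and 59 bases before the transcript start, of which the last pair overlap and are read on opposite strands. The Acaca run held none of the 4 motifs, which says nothing of its other annotated starts. The Acly run held 4 Sp1 boxes, and Elovl5 held an E-box 161 bases before its start and 2 NF-Y boxes. RefSeq gave 11 promoters for 8 of the 10 members, in windows from 250 bases before to 50 after the start; Scd1 and Scd2 had no entry. An NF-Y box was in 7 of the 11, a Sp1 box in 5, an E-box in 1 and the sterol regulatory element letters in 0. Over all 32851 promoters of the same length, these shares were 37.4% for the NF-Y box, 35.7% for the Sp1 box, 7.15% for the E-box and 1.24% for the sterol regulatory element letters. A match describes the letters in this window only.

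Acly, the source of cytosolic acetyl-CoA (ENSMUSG00000020917, GRCm39 chr11:100367165-100440756, minus strand), was at 450.6, 456.9 and 421.4 CPM in the vehicle samples and at 544.1, 500.9 and 545.9 CPM in the S1P samples. Every S1P sample lay above every vehicle sample. Its log2 fold change was 0.26 (SE 0.07, 95% interval 0.11 to 0.41), with an adjusted p of 0.0169 by edgeR's quasi-likelihood test, so the difference was larger than the spread but under the fold threshold. Without the second S1P sample it was 0.30 and the gene was called higher (adjusted p 0.00142).

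Acaca encodes the cytosolic acetyl-CoA carboxylase, the committed step of fatty acid synthesis (ENSMUSG00000020532, chr11:84020476-84292477, plus strand). It was at 292.7, 276.2 and 255.5 CPM with vehicle and at 194.6, 168.9 and 189.1 CPM with S1P. The groups were well apart, with the lowest vehicle sample above the highest S1P sample. The log2 fold change was -0.58 (SE 0.08, 95% interval -0.75 to -0.41; adjusted p 0.000383). Of the 31-base stretches of its exons, 31.3% also occur in other genes, Gm5182 first, so some of its reads could have been counted elsewhere or not at all. Gm5182 itself held 44, 31 and 36 counts with vehicle and 28, 17 and 15 with S1P.

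Acacb encodes the carboxylase of the outer mitochondrial membrane, whose malonyl-CoA restrains fatty acid oxidation (ENSMUSG00000042010, chr5:114284307-114388822, plus strand). It was close to undetected, with 4, 7 and 7 counts in the vehicle samples and 9, 13 and 10 in the S1P samples. This corresponds to 0.398 ± 0.148 and 0.811 ± 0.318 CPM (SD, n = 3), and the CPM of the groups overlapped. It was below the filter on low counts, and with no filter its log2 fold change was 0.96 with an adjusted p of 0.263. Within each sample the log2 ratio of Acaca to Acacb (prior count of 2) was 9.64, 8.73 and 8.77 with vehicle and 8.24, 7.05 and 7.68 with S1P. The mean difference was -1.39, with p = 0.1 in an exact permutation test (two-sided; adjusted p 0.4 over 4 ratios), which is the smallest p that 3 against 3 samples allow, and it rests on the few Acacb counts.

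Fasn (ENSMUSG00000025153, chr11:120696672-120715995, minus strand) was at 705.9, 668.9 and 643.5 CPM in the vehicle samples. In the S1P samples it was at 429, 346.4 and 433.2 CPM. No S1P sample reached the vehicle range, and the second S1P sample was the lowest. The log2 fold change was -0.74 (SE 0.09, 95% interval -0.94 to -0.54; adjusted p 0.000208), and without that sample it was -0.64. Of the tested genes, 272 fell by more than Fasn and 575 fell by more than Acaca.

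None of the 3 elongases was called. Elovl1, which extends saturated and monounsaturated chains to very long ones (ENSMUSG00000006390, chr4:118284346-118290150, plus strand), was at 66.9, 67.9 and 66.6 CPM with vehicle and at 61.1, 52.7 and 61.9 CPM with S1P. All S1P samples were lower, but the log2 fold change of -0.20 (SE 0.08, 95% interval -0.36 to -0.03) did not pass the test (adjusted p 0.0786). With each sample left out in turn, the Elovl1 value lay between -0.243 and -0.126. Elovl5, the elongase of polyunsaturated chains (ENSMUSG00000032349, chr9:77818113-77891802, plus strand), was at 152.3, 166.1 and 154.8 CPM with vehicle and at 177.4, 187.4 and 183 CPM with S1P. All S1P samples were higher, and the log2 fold change of 0.21 (SE 0.07, 95% interval 0.07 to 0.35; adjusted p 0.0312) was under the fold threshold.

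Elovl6, which lengthens palmitate to stearate and so feeds the desaturases (ENSMUSG00000041220, chr3:129326004-129432144, plus strand), was at 56.4, 77.2 and 53 CPM with vehicle and at 71, 64.9 and 68.9 CPM with S1P. The second vehicle sample was higher than every S1P sample, and the other two vehicle samples were lower than all of them. The log2 fold change was 0.14 (SE 0.12, 95% interval -0.13 to 0.40; adjusted p 0.422). Without the second vehicle sample it was 0.31 and passed both thresholds (adjusted p 0.0303). Among the fits that left out a sample, its lowest value was 0.032. The log2 ratio of Elovl6 to Elovl5 averaged -1.36 ± 0.229 with vehicle and -1.42 ± 0.105 with S1P (SD, n = 3; exact permutation test, two-sided, p = 0.9, adjusted p 0.9).

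Scd1, the desaturase best known from liver and fat (ENSMUSG00000037071, chr19:44382894-44399154, minus strand), was at 297, 267.9 and 233.7 CPM with vehicle. With S1P it was at 439.5, 459.1 and 420.9 CPM. The groups were far apart, and the second S1P sample, lowest for Fasn, was highest here. The log2 fold change was 0.72 (SE 0.09, 95% interval 0.53 to 0.92; adjusted p 0.000201).

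Scd2, its neighbour and close relative (ENSMUSG00000025203, chr19:44281613-44295303, plus strand), was at 1499, 1642.6 and 1242.9 CPM with vehicle and at 2405, 2035.9 and 2226.6 CPM with S1P. Every S1P sample lay above every vehicle sample. The log2 fold change was 0.60 (SE 0.11, 95% interval 0.37 to 0.84; adjusted p 0.00175). It had the 35th highest mean CPM of the tested genes, the highest of the set. The log2 ratio of Scd1 to Scd2 was -2.45 ± 0.145 with vehicle and -2.33 ± 0.163 with S1P (SD, n = 3), a difference of 0.12 within the spread (exact permutation test, two-sided, p = 0.5, adjusted p 0.667). Of the 31-base stretches of Scd1, 5.91% are shared with other genes, mostly Scd2, Scd4 and Scd3, so reads could have been split between them to that extent.

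Srebf1, which encodes SREBP1 (ENSMUSG00000020538, chr11:60089913-60113407, minus strand), was at 88.1, 90.9 and 81.5 CPM with vehicle and at 108.4, 71.3 and 97 CPM with S1P. The first and the last S1P sample were above all vehicle samples and the second was below all of them. The log2 fold change was 0.09 (SE 0.12, 95% interval -0.18 to 0.36; adjusted p 0.61). It was 0.25 without the second S1P sample, where it passed the adjusted p but not the fold threshold, and -0.04 without the first. The log2 ratio of Srebf1 to Srebf2, which encodes the SREBP of the cholesterol pathway, was -1.89 ± 0.0463 with vehicle and -1.77 ± 0.106 with S1P (SD, n = 3; exact permutation test, two-sided, p = 0.2, adjusted p 0.4). Transcript level is not the amount of processed SREBP1 in the nucleus, which these data do not hold.

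**Figure D2:**
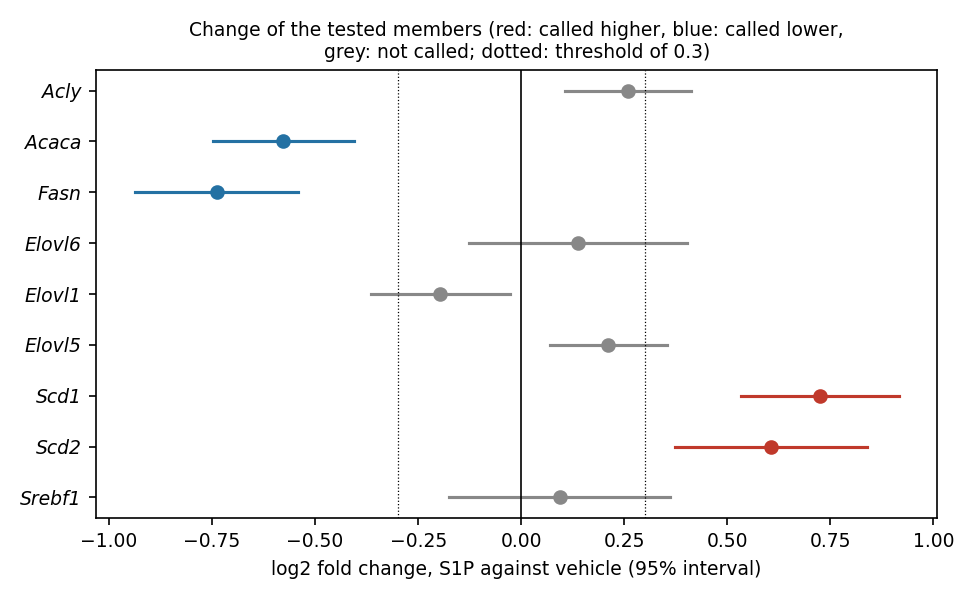
Log2 fold change (S1P against vehicle) of the 9 tested genes with 95% intervals, called higher in red, called lower in blue and not called in grey, and dotted lines at the fold threshold of 0.3. Fasn and Acaca lie wholly below the lower line and Scd1 and Scd2 wholly above the upper one, while the intervals of Elovl6 and Srebf1 hold 0.

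Together the 10 genes took 0.366%, 0.371% and 0.318% of all counts in the vehicle samples and 0.453%, 0.368% and 0.421% in the S1P samples. The groups overlapped in this share of the raw library counts, through the second S1P sample. The share leaves out the TMM factors, which were 0.9489 for that sample and 0.9985 to 1.025 for the others. It therefore does not say whether the summed TMM-scaled CPM overlapped. The make-up of the members' counts did not overlap. Scd1 and Scd2 were 46.8% to 51.4% of the members' counts with vehicle and 62.6% to 64.2% with S1P. Fasn and Acaca were 25.4% to 28.5% with vehicle and 13.3% to 14.7% with S1P. The CPM ratio of Scd2 to Fasn was 2.12, 2.46 and 1.93 in the vehicle samples and 5.61, 5.88 and 5.14 in the S1P samples. The ratio of Acly to Fasn was 0.638, 0.683 and 0.655 with vehicle and 1.27, 1.45 and 1.26 with S1P, so that Acly stood below Fasn in CPM before and above it after. The ratio of Acaca to Fasn rose by less, from 0.397 to 0.415 with vehicle to 0.436 to 0.487 with S1P, and its groups did not overlap either. These shares and ratios were chosen after the values were seen and carry no test.

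**Figure D3:**
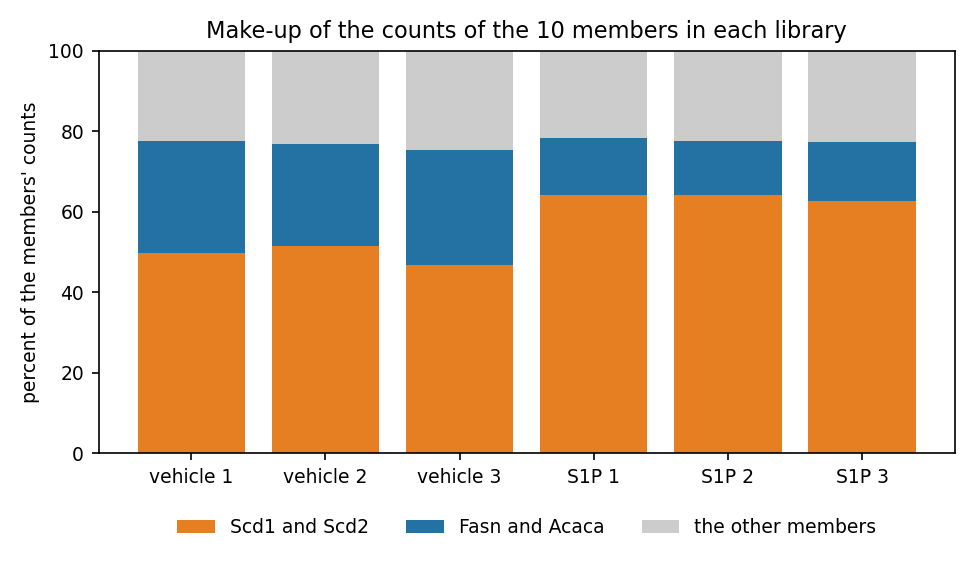
Make-up of the counts of the 10 genes in each sample, as stacked percentages of the members' counts for Scd1 with Scd2 (orange), Fasn with Acaca (blue) and the other genes (grey). Scd1 and Scd2 make up 46.8% to 51.4% of the bar in vehicle samples and 62.6% to 64.2% in S1P samples, and Fasn and Acaca 25.4% to 28.5% and 13.3% to 14.7%.

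Per kilobase of exon, with all annotated exons merged, Scd2 was highest in vehicle samples at a mean level of 194.2 CPM per kb (165.1 to 218.2). Fasn followed at 57.5 (55.0 to 60.3), then Scd1 at 36.9 (32.4 to 41.2), Acly at 30.4 (28.9 to 31.3) and Elovl5 at 27.8 (26.8 to 29.3). Acaca at 14.9 and Srebf1 at 14.7 CPM per kb came next with overlapping ranges, followed by Elovl1 at 12.4, Elovl6 at 7.33 and Acacb at 0.0391. With S1P, Scd2 was at 295.3 and Scd1 at 61.0 CPM per kb, while Fasn was at 34.4 (29.6 to 37.0), in a range that overlapped those of Acly at 36.4 (34.4 to 37.5) and Elovl5 at 32.2 (31.3 to 33.0). Acaca, at 10.0 (9.18 to 10.6), overlapped Elovl1 at 10.8 (9.69 to 11.4). The order depended on the length used. With the canonical transcript in place of all exons, a choice made after seeing the data, Scd2 was still highest, at 267.9 CPM per kb with vehicle, but Acly, at 100.4, came before Fasn, at 62.4. With S1P, Fasn was at 37.3, below Acly at 120.3, Scd1 at 87.5 and Elovl5 at 61.7 CPM per kb.

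**Figure D4:**
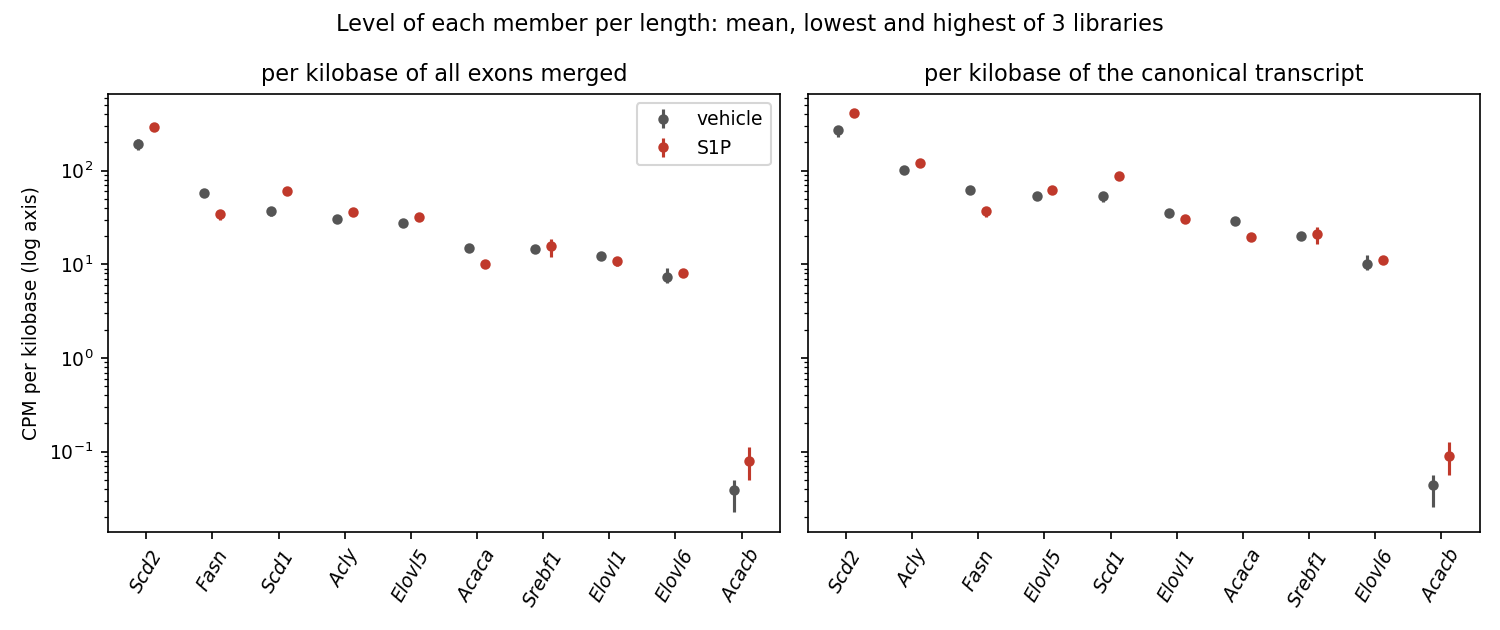
Level of the 10 genes in CPM per kilobase (log axis), per length of all exons merged on the left and of the canonical transcript on the right, with points at the mean and lines from the lowest to the highest of the 3 vehicle (grey) or S1P (red) samples. Scd2 is highest and Acacb lowest in both groups on either length, and on the left Fasn passes from 57.5 with vehicle to 34.4 with S1P.

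The genes whose level followed Fasn most closely over the 6 samples were Akr1b1, an aldose reductase (Pearson r of log2 CPM 0.9993), Ogdh, a subunit of the 2-oxoglutarate dehydrogenase complex of the citric acid cycle (r 0.9990), and Ddx39b, an RNA helicase (r 0.9990). Since 756 tested genes had an r of at least 0.95 with Fasn, with the groups on either side, these names single out little. For Srebf1 they were Gm4735 (r 0.9865), Scarb1, the receptor for high-density lipoprotein (r 0.9860), and Ncapd2, a condensin subunit (r 0.9839), and 40 genes had an r of at least 0.95. The 6 samples share only 2 conditions, so these correlations are descriptions.

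Of the genes that control SREBP and lipid transcription, 18 of 22 were tested, 4 were called higher and 2 lower, with a median log2 fold change of 0.01. Beside this list and those that follow, 12.7% of all tested genes were called higher and 10.4% lower. Lpin1, a phosphatidate phosphatase and transcriptional coregulator, rose from 26.1 ± 5.31 to 71 ± 11.5 CPM (log2 fold change 1.45, SE 0.14, adjusted p 6.61e-05). Insig2, which holds SREBP in the endoplasmic reticulum, rose by 0.67 and Ppard, a nuclear receptor for fatty acids, by 0.58 on the log2 scale. Insig1, a target of SREBP with the same retaining role, was called higher at 0.31 but lost its call without the third vehicle sample (0.26, adjusted p 0.0636) and without the first (0.28) or second (0.29) S1P sample. In all it lost the call in 8 of 17 alternative fits, the other 5 being total-count scaling, no filter, DESeq2 and the GC offset with and without the replicate block, where it lay between 0.278 and 0.29, under the fold threshold. Scap, the escort that carries SREBP to the Golgi, fell from 64.2 ± 2.64 to 48.0 ± 4.61 CPM (log2 fold change -0.42, adjusted p 0.00372). Mlx, the partner of the carbohydrate-responsive factors, fell by 0.32 and lost its call without the first vehicle sample (-0.30, adjusted p 0.0562) and, by size, with upper-quartile scaling or a GC offset (-0.295 to -0.283 in 3 fits).

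Of the genes that supply acetyl-CoA and NADPH or otherwise support fatty acid synthesis, 12 of 16 were tested, 3 were called higher and 3 lower, with a median log2 fold change of -0.01. Acss2, which makes acetyl-CoA from acetate, rose from 7.1 ± 1.32 to 15.1 ± 1.53 CPM (log2 fold change 1.09, SE 0.15, adjusted p 0.000412). Slc25a1, the mitochondrial citrate exporter, rose by 0.45, and Idh1, a cytosolic source of NADPH, by 0.59. Without the third S1P sample neither passed (0.36 with an adjusted p of 0.0535 and 0.51 with 0.0784), and without the third vehicle sample Idh1 was at 0.42 (adjusted p 0.0683). Mecr and Mcat, enzymes of the separate mitochondrial fatty acid synthesis pathway, fell by 0.43 and 0.60, and Slc25a10, the dicarboxylate carrier, fell by 0.58. Without the first vehicle sample Mcat (-0.56) and Slc25a10 (-0.57) did not pass, nor did Slc25a10 without the third S1P sample (-0.52, adjusted p 0.0545).

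Of the other elongation and desaturation enzymes, 14 of 19 were tested, 3 were called higher and 1 lower, with a median log2 fold change of 0.09. Fads2, the desaturase that starts polyunsaturated fatty acid synthesis, was at 34.4, 47.4 and 30.0 CPM with vehicle and at 96.1, 107.2 and 89.8 CPM with S1P. The groups were far apart, and its log2 fold change of 1.39 (SE 0.14, adjusted p 6.05e-05) stood beside 0.72 for Scd1 and 0.60 for Scd2. Cyb5r3, which passes electrons to desaturases, rose by 0.34 and lost its call without the second vehicle sample (0.32, adjusted p 0.0527) and, by size, without the second S1P sample (0.25). Tecr, the last enzyme of the elongation cycle, rose by 0.32 and lost its call without the first vehicle sample (0.29, adjusted p 0.0508) and, by size, without the second S1P sample (0.26), with total-count scaling (0.293) and with no filter (0.29). Hacd3, a dehydratase of the same cycle, fell by 0.43.

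Cholesterol synthesis, which SREBP2 governs, was taken as a neighbouring pathway for comparison. Of its 22 genes 21 were tested and 12 were called higher, beside 12.7% of all tested genes, with a median log2 fold change of 0.42. The 4 largest rises were in Mvd (0.74, from 19.6 ± 2.25 to 32.4 ± 2.54 CPM), Nsdhl (0.67), Fdft1 (0.66), which encodes squalene synthase, and Stard4 (0.63), a carrier of sterols, which Hmgcs1 equalled to 2 decimals (0.63). Fasn and Acaca therefore moved against the direction of most genes of this list, and Scd1 and Scd2 with it; no test was made of the difference between the lists.

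Of 10 genes of fatty acid uptake and binding 7 were tested, with 1 called higher, 1 lower and a median log2 fold change of 0.09. Vldlr, the very low density lipoprotein receptor, was at 4.78, 5.94 and 1.48 CPM with vehicle and at 48.7, 36.1 and 33.0 CPM with S1P (log2 fold change 3.29, SE 0.29, adjusted p 3.62e-05). Cd36, a fatty acid translocase, was at 7.73, 6.16 and 8.74 CPM with vehicle and at 2.19, 2.9 and 3.93 CPM with S1P (log2 fold change -1.36, SE 0.22, adjusted p 0.00113). Neither gene's groups overlapped, which held for 45.6% of all tested genes. Of 25 genes of fatty acid oxidation 23 were tested, with 2 called higher, 1 lower and a median of -0.05. Leaving out each sample in turn gave 2 of these genes higher and 1 to 3 lower. Eci2, an isomerase for unsaturated chains, rose by 0.43 and Etfdh by 0.37. Acad9, an acyl-CoA dehydrogenase also needed to assemble respiratory complex I, fell by 0.48.

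**Figure D5:**
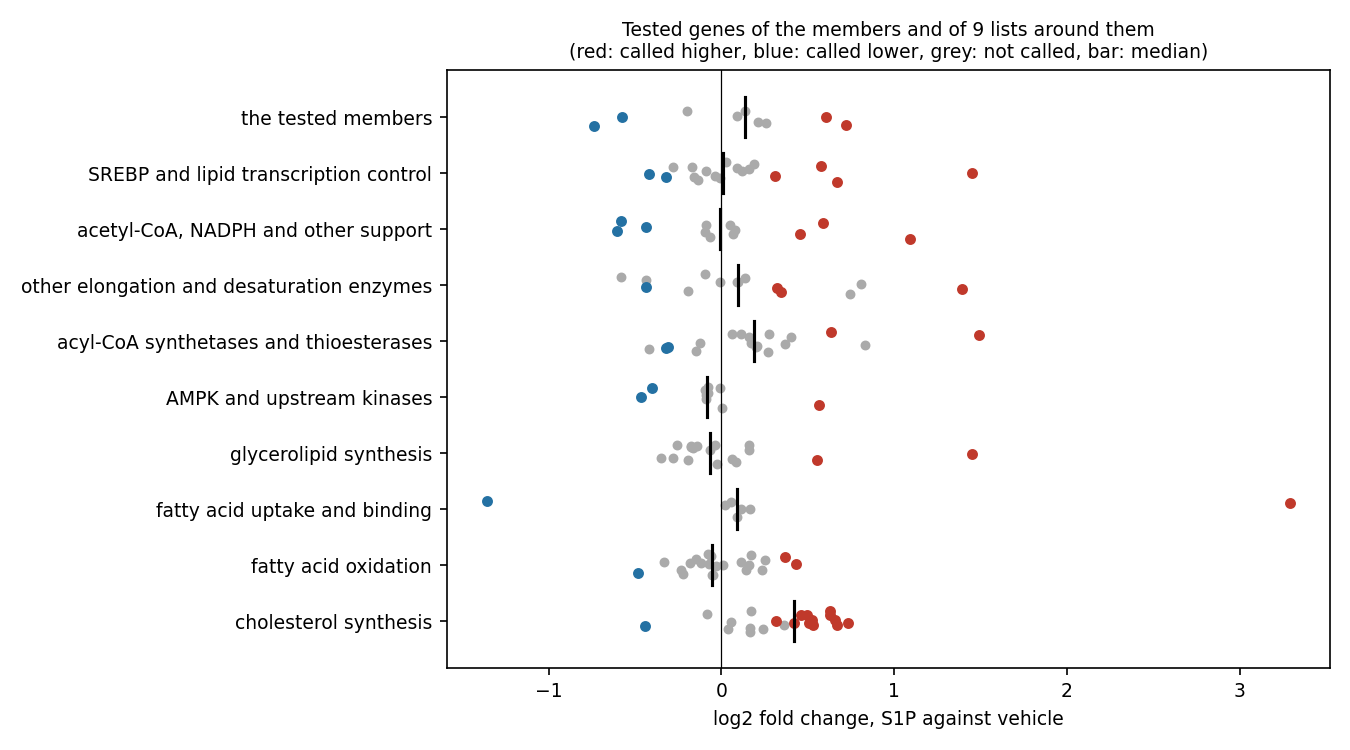
Log2 fold change (S1P against vehicle) of the 9 tested fatty acid genes and of the tested genes of 9 pathway lists, each list on its own line, with genes called higher in red, called lower in blue and not called in grey, and a bar at each median. The medians lie between -0.08 for AMPK and upstream kinases and 0.42 for cholesterol synthesis.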

How the data were processed

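RNA-seq was made from 3 vehicle-treated and 3 S1P-treated samples, grouped by the treatment named in the labels. The authors prepared strand-specific libraries of polyadenylated RNA, and per the labels they trimmed reads with Trim Galore, aligned them to GRCm39 with STAR and counted them with featureCounts. The deposited values are whole-number counts per Ensembl gene, without normalization. Tool versions, the annotation release and the strand setting are not given in the sources used here, so reads of genes that overlap on opposite strands may be mixed; for the members at most 1.93% of exon bases overlap so.

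Of 56941 identifiers, 34414 had at least 1 count and 56323 matched GENCODE vM39 (GRCm39), which gave symbols, positions and lengths. The 13299 genes that passed edgeR's filterByExpr were scaled by TMM, and treatment was the single term of a quasi-likelihood fit in edgeR 4.0.16 (run under R 4.3.3 and beside limma 3.58.1), whose p-values were adjusted by the Benjamini-Hochberg method; the common biological coefficient of variation was 0.0826. A call needed an adjusted p up to 0.05 and a log2 change of 0.3 or more either way. The fit was tested on data simulated at the common dispersion. It recovered 176 of 195 changed genes with 12 false calls, and made 0 false calls where no gene was changed. No simulated sample was set apart as the second S1P sample was, so the test does not cover that case. Ratios within a sample were taken on the log2 CPM scale (prior count 2) and compared by an exact permutation test. Total counts ranged from 12048880 to 17384084, and counting error matters mainly for Acacb, with 4 to 13 counts. A gene was at the floor with at most 3 counts in every sample, which covers counting error only.

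The members, lists and alternatives were chosen with earlier results of these data known. Beside the 10 members, the text names the called genes of each list, at most the 4 of largest fold change in each direction, and the 3 genes most correlated with Fasn and with Srebf1. A called gene of the cholesterol synthesis list is not reported here. Promoters came from a RefSeq table of GRCm38.p6. Alternatives were RLE, upper-quartile and total-count scaling, no filter, minimum counts of 10 in every sample or 50 on average, DESeq2 1.42.0, limma-voom, offsets for GC content, the replicate number as a block, and the fit without each sample in turn. The columns of the 6 samples were all used.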

Additional observations from a re-analysis of the deposited data

How the results depend on the processing

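The calls of Fasn, Acaca, Scd1 and Scd2 held in all 17 alternative fits of each gene, and their log2 fold changes ranged from -0.801 to -0.64, -0.629 to -0.517, 0.636 to 0.808 and 0.499 to 0.693. With the adjusted p alone, 4 members were called higher in place of 2, the others being Acly and Elovl5. Leaving out each sample in turn left 2 members lower and 2 to 3 higher, and moved the counts over all genes to between 961 and 1492 lower and between 1158 and 1736 higher. Srebf1 ranged from -0.043 (without the first S1P sample, where its sign turned) to 0.247, and the log2 ratio of Elovl6 to Elovl5 from -0.152 to 0.068 (without the second vehicle sample, where its sign turned); the causes were not tested. The same fits, chosen for the T cell and CD4 markers named after seeing the data, gave Cd8a from -0.718 to -0.577 and Cd8b1 from -0.645 to -0.366, and Cd4 from -0.02 (without the second S1P sample, where its sign turned) to 0.177 (without the first). Vehicle and S1P samples share replicate numbers, but the deviations of same-numbered samples correlated at 0.12, -0.00598 and 0.0483, the second S1P sample correlated best with another number, and the numbers were not taken as a pairing. With the replicate number as a block, 2 members were lower and 2 higher, and 1423 genes lower and 1697 higher, beside 1384 and 1687. DESeq2 called 1346 genes lower and 1296 higher. Of 42 called genes of the pathway lists, 28 kept their call in every fit, and 14 lost it without at least 1 sample. Depth limits Acacb, whose log2 fold change lay between 0.683 and 1.278 in the 6 fits that kept it.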

Other observations

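For scale, 12.7% of all tested genes were called higher and 10.4% lower. Of 19 acyl-CoA synthetases and thioesterases 18 were tested, with 2 called higher, 2 lower and a median log2 fold change of 0.19. Leaving out each sample in turn gave 1 to 4 of them higher and 0 to 2 lower. Acsl3, an acyl-CoA synthetase of lipid droplets and the endoplasmic reticulum, rose from 71.3 ± 4.57 to 111.1 ± 22.4 CPM (SD, n = 3; log2 fold change 0.64, adjusted p 0.00269 by edgeR's quasi-likelihood test). Acsl5, the most abundant of the genes called in this list, fell from 367.9 ± 4.91 to 296.7 ± 14 CPM (log2 fold change -0.31), and was under the fold threshold at -0.29 without the first or the second S1P sample, at -0.287 with upper-quartile scaling and at -0.295 with a minimum mean count of 50. Acot7, a thioesterase, fell by 0.32 on the log2 scale and was at -0.29 without the third vehicle or the first S1P sample, and between -0.299 and -0.243 in 3 fits with upper-quartile scaling or a GC offset, all under the fold threshold. Acsl6, at 0.774 ± 0.601 and 2.04 ± 0.724 CPM, was called at 1.49 but lost the call without the first (1.15) or the third (1.22) vehicle sample or the first S1P sample (1.12), and with DESeq2 (1.42, adjusted p 0.057).

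Of 12 genes of AMPK, the kinase that phosphorylates and inhibits acetyl-CoA carboxylase, and its upstream kinases, 10 were tested, with 1 called higher, 2 lower and a median log2 fold change of -0.08. Prkab2, a regulatory beta subunit, rose by 0.56 on the log2 scale. Camkk2, an upstream kinase, fell from 38.8 ± 2.2 to 29.5 ± 2.2 CPM (log2 fold change -0.40, adjusted p 0.00576). Prkag1, a gamma subunit, was called lower at -0.46 and lost the call without any of the vehicle samples (-0.47, -0.42 and -0.51) or the third S1P sample (-0.50). Of 22 genes of glycerolipid synthesis 17 were tested, with 2 called higher, 0 lower and a median of -0.07. They were Lpin1, already given, and Gpat3, an acyltransferase at 3.41 ± 0.474 and 5 ± 0.246 CPM (log2 fold change 0.55), whose call was lost in 5 of the 6 fits that left out a sample, with values from 0.450 to 0.588 in those 5, and also with no filter (0.526, adjusted p 0.0868 by edgeR) and with DESeq2 (0.534, adjusted p 0.124).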
